A study of Mus musculus with 10 samples.

Results

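The genes described here are 10 genes that mature white adipocytes use to store and release fat and to signal to other tissues: Adipoq, Lep, Retn, Cfd, Plin1, Cidec, Fabp4, Pparg, Lpl and Lipe. They were chosen by name and looked up in the whole-aorta arrays among probe sets that the platform annotation gives 1 gene symbol. Of the 10, 9 were measured, out of 22180 genes in all, and Cfd, which encodes the secreted protease adipsin, was not analysed here. The arrays came from 5 ApoE/IL-17 double knockout mice and 5 ApoE knockout mice, all male, on a C57BL/6 background and 11 weeks old, with 1 aorta per array. Both groups lacked apolipoprotein E, which clears lipoprotein remnants from plasma, and were fed fat-rich chow from week 8 on, for 3 weeks. The double knockout mice also lacked the cytokine IL-17 and were bred from IL-17-/- and ApoE-/- mice, and the question is what IL-17 does in an aorta exposed to high plasma lipids. Protocols of the ApoE knockout samples mention caspase-1 and wild-type animals but no IL-17. The sources used here give no dates or batches and no account of how fat was dissected from the vessels, so a batch and the genotype cannot be told apart.

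A white adipocyte holds its triglyceride in 1 large droplet. Perilipin 1 (Plin1) coats the droplet and guards it from hydrolysis, Cidec fuses small droplets into large ones, and hormone-sensitive lipase (Lipe) splits diglycerides when hormones call for fatty acids. Lipoprotein lipase (Lpl), secreted to the capillary wall, and the fatty acid binding protein Fabp4 supply fatty acids, and the nuclear receptor PPARγ (Pparg) with its partner RXR and the C/EBP factors switches most of these genes on. The cells also release hormones: adiponectin (Adipoq), leptin (Lep), which reports fat stores to the brain, and, in mice, resistin (Retn). In the aorta such cells form the perivascular fat around the vessel, which in mice is partly brown. Brown adipocytes use many of the same genes and burn the fat through the uncoupling protein Ucp1, while macrophages also express Lpl, Fabp4 and Pparg.

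The bases just upstream of the start sites of 3 of the genes are shown because these genes behaved differently, though none of the 3 was called. Lep had the largest difference between the genotypes and Adipoq the smallest. Plin1 moved with Adipoq between aortas but was lower relative to it in the double knockout, in a fit chosen after the data were seen. Sequences are the 120 bases before each start from RefSeq on build GRCm38.p6, read 5′ to 3′ on the gene's own strand, with motif matches in capitals.
Lep, chr6:29060101-29060220, plus strand: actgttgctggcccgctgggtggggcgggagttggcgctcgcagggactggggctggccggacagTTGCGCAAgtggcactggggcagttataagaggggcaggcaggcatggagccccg
Adipoq, chr16:23146416-23146535, plus strand: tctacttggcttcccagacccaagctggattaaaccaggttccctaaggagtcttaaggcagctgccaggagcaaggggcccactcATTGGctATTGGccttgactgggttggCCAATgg
Plin1, chr7:79732777-79732896, minus strand: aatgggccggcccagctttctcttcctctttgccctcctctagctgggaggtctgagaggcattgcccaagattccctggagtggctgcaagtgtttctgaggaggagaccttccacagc
The capitals in Lep are the palindrome TTGCGCAA that C/EBP factors bind, 55 to 48 bases before the start, a string that 0.164% of 32851 promoters held on either strand within 250 bases. The capitals in Adipoq are 3 copies of the CCAAT box, also read as ATTGG on the opposite strand, which 33.8% of promoters held. The direct repeat that PPAR and RXR bind, AGGTCA copied after 1 spacer base, and a looser form with AGGNCA in both places were held by 0.0335% and 0.338% of promoters and were found in 0 of 12 promoters of the 8 listed genes in the table, both strands searched. The box TATAAA was found in 1 of the 12, a Pparg promoter, against 12.4% of all promoters, and CACGTG in 1, a Lipe promoter, against 6.02%. These matches describe letters and show no binding.

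All values are the deposited log2 signals of probe sets, so they rank aortas for 1 gene and do not rank genes against each other. In the olfactory, vomeronasal and taste receptor genes, whose known sites of use are sensory organs, 95% of mean signals lay below 5.80, and the mean of each of the 9 genes lay above that level. Differences are double knockout minus ApoE knockout from limma, with p-values adjusted over all 22180 genes, and a gene is called below an adjusted p of 0.05. Of the 9 genes 0 were called, and 1, Lep, had an unadjusted p below 0.05, although limma called 30.3% of all genes (22.8% higher and 7.53% lower) and gave 43% of them an unadjusted p below 0.05. Groups did not overlap for 0 of the 9 genes, against 20.4% of all genes. Differences of all 9 genes were below 0, with a median of -0.52, while the median over all genes was 0.10 and 8007 of the 22180 were below 0. The 9 genes vary together between aortas, so their shared direction is not 9 separate observations. The array medians stood at 5.95 to 6.03 in the double knockout and 5.76 to 5.80 in the ApoE knockout, so scaling matters: the all-gene median was -0.02 after quantile normalization, -0.11 after centring arrays on their median and -0.22 after centring on the receptor genes. The share of calls that were higher was 75.1% as deposited, 44.4% after quantile normalization, 22.8% after median centring and 8.81% after centring on the receptor genes. Of the 9 genes, 2 were called lower after median centring, against 25.4% of all genes, so that count lay near the background. After centring on the receptor genes 5 were called lower, against 22.8% of all genes, and after quantile normalization 0 were, against 11.2%. In whole tissue, fewer adipocytes and less RNA per adipocyte cannot be told apart.

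Of the 3 hormone genes, leptin had the largest difference. Its signal was 6.27, 6.34, 5.94, 6.27 and 5.56 in double knockout replicates 1 to 5, against 8.55, 6.45, 7.49, 6.72 and 6.05 in ApoE knockout replicates 1 to 5. Every double knockout aorta lay within 1 narrow low band, 1 of them under the level of the receptor genes, while the ApoE knockout aortas spread widely and the lowest of them fell inside the double knockout range. Lep averaged 6.08 ± 0.33 in the double knockout and 7.05 ± 0.99 in the ApoE knockout (SD, n = 5 each). The difference of -0.98 (SE 0.39, 95% interval -1.84 to -0.12), a 1.97-fold lower signal, gave a limma adjusted p of 0.080. Over the settings tried that p ran from 0.0074 to 0.16. It was 0.032 without ApoE knockout replicate 5, the lowest of its group, and the difference was -0.60 without ApoE knockout replicate 1, the highest.

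Adiponectin, the most abundant of the fat hormones in blood, had the smallest difference of the 9 genes. Adipoq signal was 8.20, 7.83, 8.57, 7.60 and 7.41 in the double knockout aortas, against 8.72, 7.69, 8.12, 8.04 and 7.11 in the ApoE knockout aortas. High and low aortas were found in both groups, which overlapped almost fully. The means were 7.92 ± 0.47 in the double knockout and 7.94 ± 0.59 in the ApoE knockout, a difference of -0.01 (SE 0.29, 95% interval -0.64 to 0.62, adjusted p = 0.98).

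Resistin, which in mice comes from adipocytes and opposes insulin, had values of 10.63, 10.003, 10.72, 9.84 and 9.13 in the double knockout and 11.06, 10.22, 10.66, 10.90 and 10.36 in the ApoE knockout. Double knockout replicates 2, 4 and 5 lay below every ApoE knockout aorta, and replicates 1 and 3 lay among them. Retn averaged 10.07 ± 0.65 in the double knockout and 10.64 ± 0.35 in the ApoE knockout, with a difference of -0.57 (SE 0.28, 95% interval -1.19 to 0.04, adjusted p = 0.14). It was -0.34 without double knockout replicate 5, the lowest aorta. Its relative Retnla, a resistin-like protein made mostly by alternatively activated macrophages, had a difference of -0.46 (adjusted p = 0.087).

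**Figure D1:**
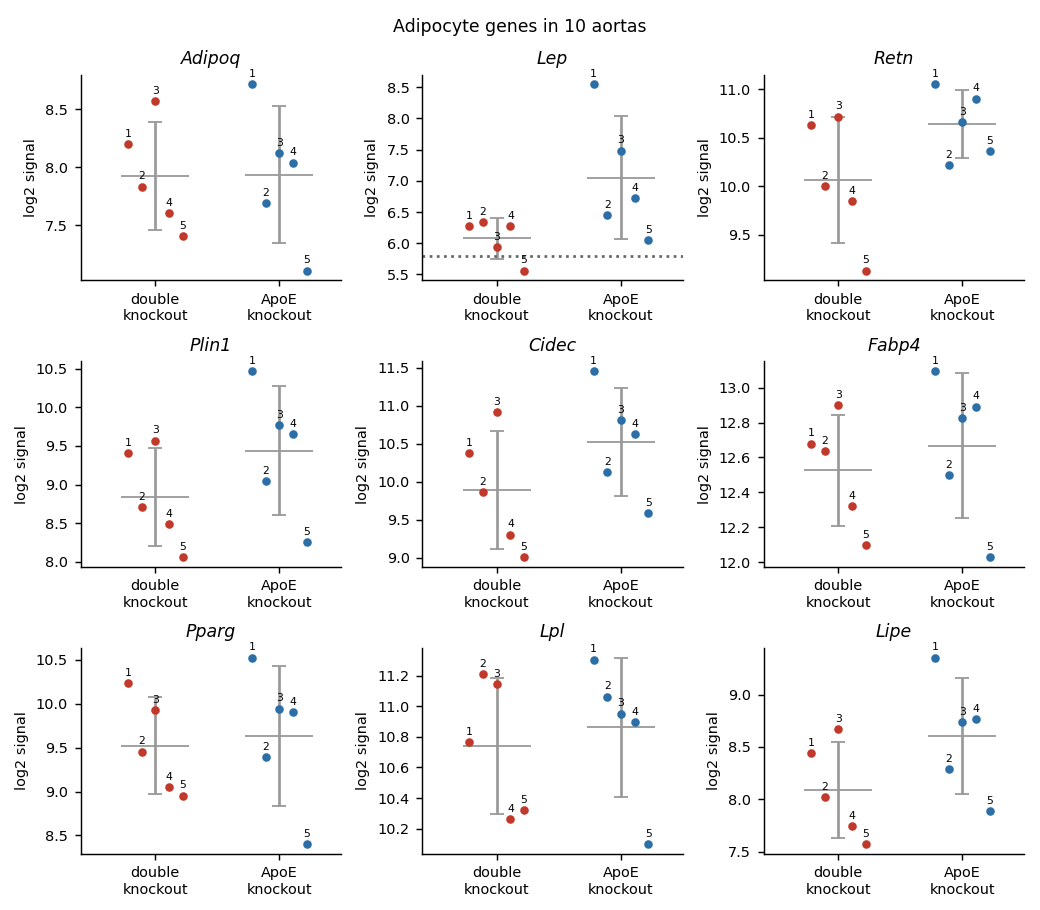
Deposited log2 signal (vertical axes) of the 9 genes, 1 panel per gene, in 5 ApoE/IL-17 double knockout aortas on the left and 5 ApoE knockout aortas on the right, with points for aortas, numbers for replicates, bars for mean and SD and, for Lep, a dotted line at the receptor gene level of 5.80. The groups overlap in every panel, and the spread of Lep is 0.33 in the double knockout against 0.99 in the ApoE knockout.

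The 2 droplet proteins and the droplet lipase had differences between -0.63 and -0.52, none of them called. Plin1 signal was 9.40, 8.71, 9.57, 8.48 and 8.06 in the double knockout, against 10.47, 9.04, 9.77, 9.65 and 8.26 in the ApoE knockout, where replicates 1, 3 and 4 lay above all double knockout aortas. Plin1 averaged 8.84 ± 0.63 in the double knockout and 9.44 ± 0.83 in the ApoE knockout, a difference of -0.60 (SE 0.39, adjusted p = 0.27), which was -0.34 without ApoE knockout replicate 1 and -0.40 without double knockout replicate 5. Cidec, the droplet fusion factor, had values of 10.38, 9.86, 10.92, 9.31 and 9.01 in the double knockout and 11.46, 10.12, 10.81, 10.63 and 9.59 in the ApoE knockout. The highest aorta was again ApoE knockout replicate 1 and the lowest were double knockout replicates 4 and 5, with the rest intermixed. Cidec averaged 9.90 ± 0.78 in the double knockout and 10.52 ± 0.71 in the ApoE knockout, and the difference of -0.63 (SE 0.40, adjusted p = 0.25) was -0.39 and -0.40 without the same aortas.

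Lipe, the hormone-sensitive lipase, had a signal of 8.44, 8.02, 8.67, 7.74 and 7.57 in the double knockout, against 9.35, 8.29, 8.74, 8.77 and 7.89 in the ApoE knockout. ApoE knockout replicates 1, 3 and 4 lay above all double knockout aortas, and replicates 2 and 5 lay within their range. The means were 8.09 ± 0.46 in the double knockout and 8.61 ± 0.55 in the ApoE knockout, a difference of -0.52 (SE 0.27, 95% interval -1.12 to 0.08, adjusted p = 0.17), which was -0.33 without ApoE knockout replicate 1.

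The fatty acid supply genes and the master regulator had smaller differences. Fabp4 values were 12.68, 12.63, 12.90, 12.32 and 12.10 in the double knockout and 13.10, 12.50, 12.82, 12.89 and 12.03 in the ApoE knockout. Lpl values were 10.77, 11.21, 11.14, 10.26 and 10.32 in the double knockout and 11.31, 11.06, 10.95, 10.89 and 10.10 in the ApoE knockout. For both genes the groups overlapped almost fully and the lowest aorta was ApoE knockout replicate 5. The differences were -0.14 for Fabp4 (SE 0.20, adjusted p = 0.62) and -0.12 for Lpl (SE 0.24, adjusted p = 0.73). A dimmer Lpl probe set gave 0.03 (adjusted p = 0.95). Pparg signal was 10.23, 9.45, 9.93, 9.05 and 8.95 in the double knockout, against 10.53, 9.39, 9.94, 9.91 and 8.40 in the ApoE knockout. ApoE knockout aortas held both the highest and the lowest value of Pparg, and the difference was -0.11 (SE 0.37, 95% interval -0.91 to 0.69, adjusted p = 0.84). Of 13 macrophage markers 1 (Cd163) was lower (adjusted p = 0.00038), against 7.53% of all genes, so that count lay near the background. The mean of the list ran from 9.04 to 9.97 in the double knockout and from 9.44 to 9.93 in the ApoE knockout. After median centring 6 of the 13 were lower and after centring on the receptor genes 8, against 25.4% and 22.8% of all genes.

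The aortas of 1 genotype differed far more in these genes than in most others. The pooled within-group SD was 0.37 for Fabp4 and 0.45 to 0.74 for the other 8 genes, against a median of 0.17 over all genes. Fabp4 stood at the 93.6th percentile of this spread and Cidec at the 99.5th. The mean of the 9 genes in an aorta ran from 8.68 to 9.82 in the double knockout and from 8.86 to 10.50 in the ApoE knockout, highest in double knockout replicate 3 and ApoE knockout replicate 1 and lowest in replicate 5 of each genotype.

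The genes went up and down together. After each group's mean was subtracted, the 36 pairs of genes had Pearson correlations over the 10 aortas of 0.50 to 0.99 with a median of 0.85, and Spearman correlations of 0.42 to 0.99 with a median of 0.90. Without ApoE knockout replicates 1 and 5, the aortas farthest out, the Pearson correlations ran from 0.13 to 1.00 with the median at 0.90. Adipoq, Plin1, Cidec, Fabp4, Pparg and Lipe formed the tight core, with 15 pairs between 0.92 and 0.99, while Lep, Retn and Lpl were looser. Leptin was the least like the rest, with a Pearson correlation of 0.78 to the mean standardized profile of the 9 genes, and 0.46 without those 2 aortas. These values describe 10 arrays that share their RNA, and each gene is part of the profile it is set against.

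**Figure D2:**
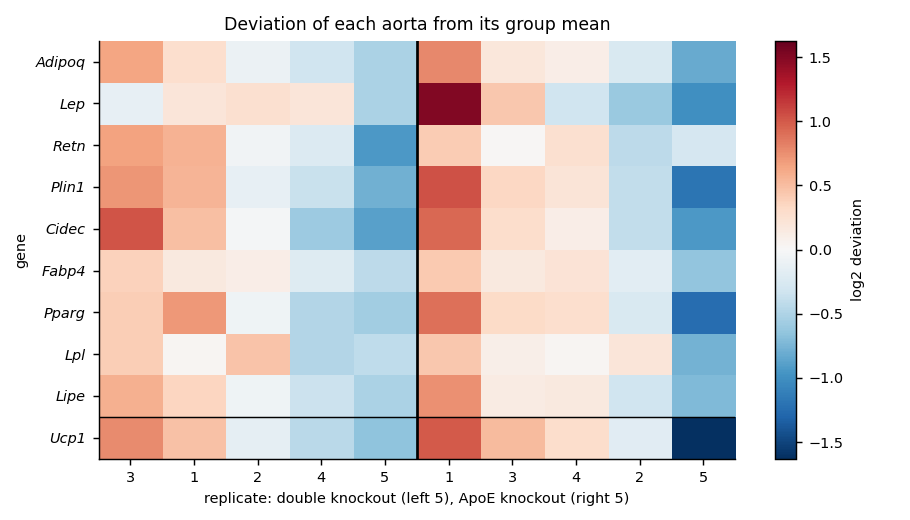
Heat map of log2 signal minus the mean of its own group (colour) for the 9 genes and, under the line, the brown fat gene Ucp1 (rows) in the 10 aortas (columns), double knockout left and ApoE knockout right, each sorted by the mean of the 9 genes. Adipoq, Plin1, Cidec, Fabp4, Pparg, Lipe and Ucp1 share their high and low aortas, and all are low in replicate 5 of each genotype.

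The 6 other genes whose profile over the 10 aortas was most like that of the 9 were Adig, Agpat2, Car3, Klb, Acadm and Lgals12, with Pearson correlations of 0.98 to 0.99. Adig (adipogenin) and Lgals12 (galectin-12) are adipocyte genes, Agpat2 makes the phosphatidic acid of triglyceride synthesis, and Car3 is a carbonic anhydrase abundant in fat. Klb is β-klotho, the coreceptor through which fat responds to FGF21, and Acadm oxidizes medium-chain fatty acids. Klb, for example, had values of 7.10, 6.57, 7.52, 5.99 and 5.88 in the double knockout and 8.15, 6.22, 7.11, 6.97 and 5.60 in the ApoE knockout, the same order of aortas as Adipoq within each genotype. None of the 6 was called, the lowest adjusted p being 0.093 for Acadm.

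Most markers of brown adipocytes moved with the 9 genes, so white and brown fat cannot be told apart as the source of the genes both cell types use. Over the 10 arrays 7 of the 10 measured markers (Ucp1, Cidea, Cox8b, Elovl3, Cox7a1, Ppargc1a and Otop1) correlated at 0.93 to 0.97 with the profile of the 9 genes. The other 3 did not follow it as closely: Dio2 stood at 0.24, the brown fat regulator Prdm16 at 0.37 and Zic1 at -0.02. Ucp1, singled out after its values were seen because it defines brown fat, had values of 12.02, 11.39, 12.32, 11.11 and 10.89 in the double knockout and 12.85, 11.68, 12.37, 12.15 and 10.23 in the ApoE knockout. The aortas highest and lowest in Ucp1 were those highest and lowest in Adipoq. Its difference was -0.31 (SE 0.44, adjusted p = 0.61). The mean of the 10 measured brown markers ran from 8.50 to 9.54 in the double knockout and from 8.21 to 10.12 in the ApoE knockout, and 1 of them, Zic1, lay under the receptor gene level. Of these markers 1 was higher and 0 were lower, against 22.8% and 7.53% of all genes. The higher one was the thyroid hormone activating deiodinase Dio2 (0.62, SE 0.16, adjusted p = 0.013). That call was lost after centring on the array median (adjusted p = 0.064) or on the receptor genes (0.25). After centring on the receptor genes 3 of the 10 brown markers were lower, against 22.8% of all genes.

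The mean of 8 capillary endothelium markers followed the same order of aortas in the ApoE knockout, from 6.99 in replicate 5 to 7.79 in replicate 1. It followed nearly the same order in the double knockout, from 7.15 in replicate 5 to 7.82 in replicate 1. Of the 8 markers 2 lay under the receptor gene level, and 0 were called, against 30.3% of all genes. Of other cell types, 8 of 9 lymphocyte markers and 3 of 5 erythroid markers were lower, against 7.53% of all genes. The erythroid mean ran from 6.33 to 7.06 in the double knockout and from 8.10 to 8.76 in the ApoE knockout, and the lymphocyte mean from 5.93 to 6.65 and from 6.96 to 7.94, without overlap in either list. Of the markers for smooth muscle 3 of 10 were higher, for fibroblasts 2 of 9, and for cardiac muscle 4 of 8, against 22.8% of all genes. The smooth muscle and fibroblast counts thus lay near the background. After median centring 0, 1 and 1 were higher, with 1 fibroblast marker lower, and after centring on the receptor genes 0 in each list. Of all 22180 genes, 1669 and 489 were higher after these centrings. Endothelial markers were lower in 2 of 11 cases as deposited, 7 after median centring and 9 after centring on the receptor genes. The shares of all genes lower were 7.53%, 25.4% and 22.8%. The part of these cell types in the results was not tested.

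Of 6 receptors for fat hormones 2 were lower and 0 higher, against 7.53% and 22.8% of all genes. Adipor1, a membrane receptor that raises AMPK activity when adiponectin binds, had values of 10.15, 10.26, 9.94, 10.12 and 10.24 in the double knockout, against 11.25, 11.56, 11.08, 11.12 and 11.25 in the ApoE knockout. Every double knockout aorta lay below every ApoE knockout aorta. Adipor1 was 2.16-fold lower (-1.11, SE 0.10, adjusted p = 6.7e-05). Its relative Adipor2 fell by 0.45 (SE 0.12, adjusted p = 0.017). Both calls held in quantile-normalized and centred values, and the erythroid and lymphocyte means given above were lower in the double knockout too, with their part not tested. The other 4 were not called: the leptin receptor Lepr had a difference of 0.36 (adjusted p = 0.069), and the adiponectin-binding cadherin Cdh13, the chemerin receptor Cmklr1 and the resistin-binding Cap1 did not pass.

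Among 13 other adipokines 2 were lower and 2 higher, against 7.53% and 22.8% of all genes, with a median difference of -0.07. After median centring or centring on the receptor genes 5 were lower and 0 higher, against 25.4% and 22.8% of all genes lower. Nampt, the enzyme of NAD synthesis that is also secreted as visfatin, fell by 0.44 (SE 0.10, adjusted p = 0.0074). Vegfb, a growth factor of the endothelium and of fatty acid transport, fell by 0.40 (adjusted p = 0.026), which did not pass in quantile-normalized values (adjusted p = 0.052) or in 3 of 10 fits that left out 1 aorta. The 2 higher ones, the omentin gene Itln1 (0.47) and vaspin, Serpina12 (0.49), lay under the receptor gene level, and neither was called after quantile normalization (adjusted p = 0.27 and 0.32).

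Of 14 mature adipocyte genes outside the 10, 13 had a difference below 0, against 8007 of all 22180 genes. Their median was -0.31. Adig, Car3 and Lgals12 among them followed the 9 genes (Pearson correlations of 0.98 to 0.99), so these are not separate observations. After median centring 2 of the 14 were lower and after centring on the receptor genes 4, against 25.4% and 22.8% of all genes. In the deposited values 1 was called lower, against 7.53% of all genes, so that count lay near the background. That gene, Thrsp, which encodes the lipogenic protein Spot 14, had values of 9.31, 8.88, 9.17, 8.51 and 8.34 in the double knockout and 10.74, 9.60, 10.14, 10.21 and 8.81 in the ApoE knockout. Only ApoE knockout replicate 5 lay inside the double knockout range, and the difference was -1.06 (SE 0.32, adjusted p = 0.028), lost in 5 of 10 fits without 1 aorta (highest adjusted p 0.063, without double knockout replicate 4).

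The lipid handling lists held few calls in the deposited values and more after centring. After median centring 4 of 11 lipid droplet, 2 of 9 triglyceride synthesis, 4 of 11 uptake and 4 of 8 lipolysis genes were lower. After centring on the receptor genes 5, 5, 4 and 3 were. The shares of all genes lower were 25.4% and 22.8%. The counts that follow are for the deposited values, where 7.53% of all genes were lower and 22.8% higher. None of 11 lipid droplet genes was called, the smallest p being that of Cav1, caveolin 1 of the droplet and plasma membrane (0.15, adjusted p = 0.11), whose direction turned after either centring. Of 9 triglyceride synthesis genes 0 were called, with a median of -0.41, and Gpd1, which makes the glycerol 3-phosphate backbone, had -1.04 (SE 0.38, adjusted p = 0.055). Of 11 genes of fatty acid uptake 0 were called, the nearest being the transporter Slc27a4 (-0.33, adjusted p = 0.054). Of 8 lipolysis genes 1 was lower, the monoglyceride lipase Mgll, which completes lipolysis after Lipe (-0.49, SE 0.13, adjusted p = 0.015).

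The regulators gave few calls in the deposited values. After median centring 6 of 14 transcription factors and 2 of 9 insulin response genes were lower. After centring on the receptor genes 7 and 3 were. The shares of all genes lower were 25.4% and 22.8%. The counts that follow are for the deposited values, where 7.53% of all genes were lower and 22.8% higher. Of 14 transcription factors of adipogenesis 2 were lower: Nr1h3, the oxysterol receptor LXRα, by 0.40 (adjusted p = 0.016), and Rxra, the partner of PPARγ, which fell by 0.26 (adjusted p = 0.021, and 0.052 without ApoE knockout replicate 3). The 1 higher gene of the list lay under the receptor gene level and was not called after quantile normalization (adjusted p = 0.11). Of 9 genes of the insulin response 1 was lower and 1 higher. Akt2, the kinase that carries the insulin signal to glucose uptake in fat, had values of 9.04, 9.02, 9.28, 8.90 and 8.86 in the double knockout, against 10.07, 9.44, 9.69, 9.66 and 9.62 in the ApoE knockout. The groups did not overlap, and Akt2 fell by 0.67 (SE 0.12, adjusted p = 0.0023). Irs2, an adaptor of the insulin receptor, was higher by 0.38 (adjusted p = 0.044), which did not pass in quantile-normalized values (0.057) or in 8 of 10 fits without 1 aorta.

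Of 10 genes used as markers of adipocyte progenitors 3 were lower and 0 higher, with a median of 0.00, against 7.53% and 22.8% of all genes. They were Cd24a, also abundant on B cells and developing red cells (-1.78, adjusted p = 3.8e-05), Dpp4, a surface peptidase also found on T cells (-0.67, adjusted p = 0.0079), and Zfp423, a transcription factor of preadipocytes (-0.24, adjusted p = 0.017). The lymphocyte and erythroid means given above were lower as well, and their part in these calls was not tested. After median centring 4 of the 10 markers were lower and after centring on the receptor genes 4, against 25.4% and 22.8% of all genes.

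**Figure D3:**
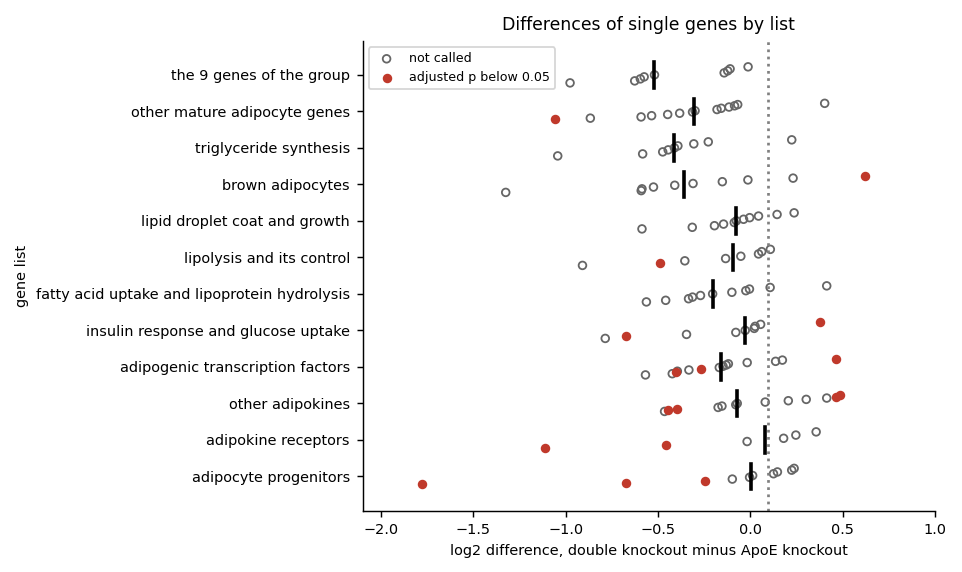
Log2 difference, double knockout minus ApoE knockout (horizontal axis), of single genes in 12 gene lists (rows), with genes called in the deposited values filled, list medians as black bars and the median of all genes, 0.10, as a dotted line. The 9 genes lie between -0.98 and -0.01, and their median of -0.52 is the lowest of the 12 lists plotted, with no filled point among them.

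Because the 9 genes differed so much between aortas, the genotypes were also compared at equal Adipoq, with the Adipoq signal of each aorta as a covariate beside genotype. This fit was chosen after seeing that the genes vary together, and Adipoq was known to have the smallest difference of the 9. Of the other 8 genes 5 were then lower and 0 higher, against 9.22% and 23.6% of all genes. Those shares are no fair background, since the covariate narrows the error of genes that follow Adipoq more than that of others. The 5 were Lipe (-0.51, SE 0.06, adjusted p = 0.00061), Plin1 (-0.58, SE 0.08, adjusted p = 0.00096), Cidec (-0.61, SE 0.09, adjusted p = 0.0016), Lep (-0.96, SE 0.28, adjusted p = 0.024) and Retn (-0.57, SE 0.17, adjusted p = 0.030). The differences barely moved from those of the plain comparison, which the Adipoq difference of -0.01 fixes in advance. The intervals narrowed, for Lipe to -0.65 to -0.37. Fabp4 (-0.13, 95% interval -0.30 to 0.04), Pparg (-0.09, -0.39 to 0.20) and Lpl (-0.11, -0.46 to 0.23) did not pass. Lep was no longer called without ApoE knockout replicate 1 or 3, nor Retn without ApoE knockout replicate 4 or 5 or double knockout replicate 4. In the double knockout Lep also lay near the receptor gene level, at 5.56 to 6.34.

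The log2 ratio to Adipoq shows the same in single aortas, its zero having no meaning between probe sets. For Lipe it was 0.24, 0.19, 0.10, 0.14 and 0.16 in the double knockout, against 0.64, 0.60, 0.62, 0.73 and 0.78 in the ApoE knockout. The groups stood well apart, at 0.17 ± 0.05 in the double knockout and 0.67 ± 0.08 in the ApoE knockout (SD, n = 5 each). The ratio of Cidec was 2.18, 2.03, 2.35, 1.70 and 1.60 in the double knockout and 2.74, 2.43, 2.69, 2.59 and 2.48 in the ApoE knockout, also without overlap. That of Lep was -1.93, -1.50, -2.63, -1.33 and -1.85 in the double knockout and -0.16, -1.24, -0.63, -1.31 and -1.06 in the ApoE knockout, apart by no more than the step between -1.33 and -1.31. Double knockout Lep signals, 5.56 to 6.34, lay near the receptor gene level of 5.80. The lowest Lep ratio was in double knockout replicate 3, whose Adipoq was the highest of its group (8.57). The ratio separated the genotypes, with the double knockout below, in 3 of 8 genes, against 0.609% of all genes. That share is no fair background for genes that follow Adipoq. Subtracting Adipoq adds its spread to genes that do not follow it, and non-overlap in either direction fell from 20.4% to 0.685% of all genes. The Plin1 ratios overlapped only between 1.14 and 1.20.

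**Figure D4:**
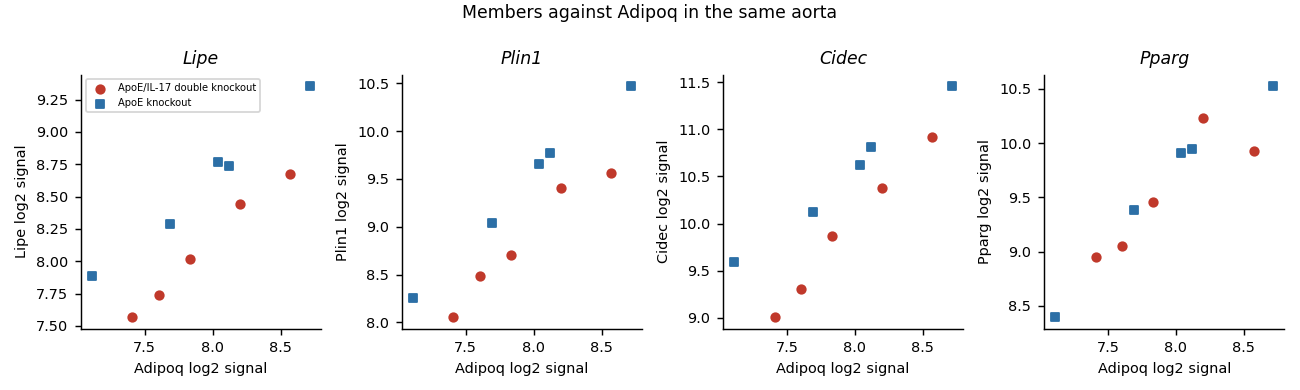
Log2 signal of Lipe, Plin1, Cidec and Pparg (vertical axes) against that of Adipoq (horizontal axes) in the same aorta, with circles for double knockout and squares for ApoE knockout aortas. For Lipe and Cidec the double knockout aortas lie below the ApoE knockout aortas along the whole Adipoq range, and for Pparg the genotypes are intermixed.

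The choice of yardstick sets the sign of this result, since it tests 1 gene relative to another. The shares of all genes given here are no fair background for genes that follow the yardstick. At equal Pparg, 4 of 8 genes were lower (Lep, Plin1, Cidec and Lipe, differences of -0.89 to -0.44) and 0 higher, against 9.07% lower and 23.7% higher of all genes. At equal Lipe, Adipoq (0.53, adjusted p = 0.0015) and Pparg (0.56, adjusted p = 0.020) were higher instead and 0 genes lower, against 19.9% higher and 7.61% lower of all genes. At equal Plin1 the same 2 genes were higher (0.41, adjusted p = 0.0040, and 0.43, adjusted p = 0.018, against 21.1% higher and 8.17% lower of all genes), and at equal Cidec Adipoq alone was (0.43, adjusted p = 0.0061, against 20.8% and 7.66%). At equal Fabp4 only Lipe was lower (-0.33, adjusted p = 0.029, against 8.12% lower and 22.3% higher of all genes). Limma called 0 of 8 genes at equal Lep (13.9% of all genes higher, 4.79% lower), at equal Retn (21.2% and 7.85%) or at equal Lpl (21.6% and 7.3%). Plin1, Cidec and Lipe were thus lower in the double knockout relative to both Adipoq and Pparg, and which side of these ratios moved cannot be told apart.

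**Figure D5:**
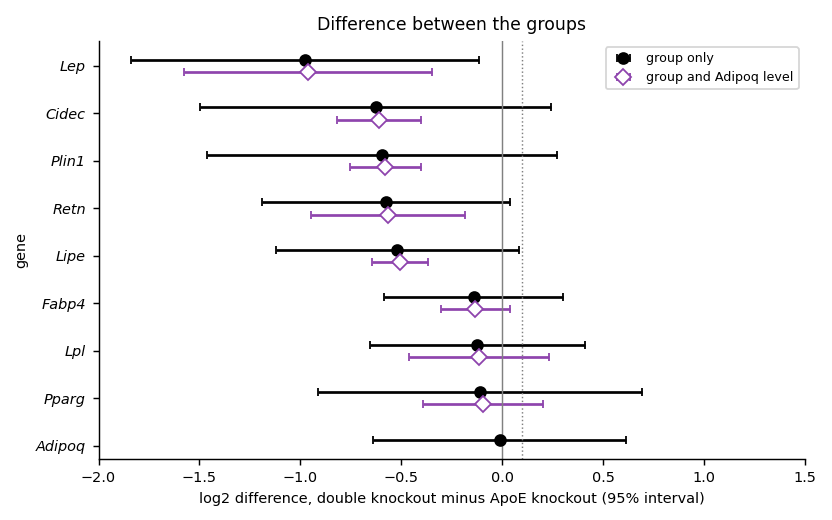
Log2 difference, double knockout minus ApoE knockout, with 95% intervals (horizontal axis) for the 9 genes (rows), from the fit on genotype alone (filled circles) and with the Adipoq signal as a covariate (open diamonds, 8 genes), the dotted line marking the all-gene median of 0.10. The points barely move, as the Adipoq difference of -0.01 fixes in advance, and the intervals of Lipe, Plin1 and Cidec shrink away from 0.

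At equal Adipoq many further genes of fat storage were lower, where 9.22% of all genes were lower and 23.6% higher. The list counts here and below hold for the Adipoq yardstick alone, in the deposited values and with all 10 aortas. Genes that follow Adipoq gain precision in this fit, so the shares of all genes are no fair background for them. Without the covariate Agpat2 had a similar difference of -0.58 (limma adjusted p = 0.20). Of 9 triglyceride synthesis genes 8 were lower and 0 higher, among them Gpd1 (-1.03, adjusted p = 0.0010), Agpat2 (-0.57, adjusted p = 0.0019) and Dgat1, which adds the last fatty acid (-0.43, adjusted p = 0.0026). Of 14 other mature adipocyte genes 6 were lower and 1 higher, the lower ones led by Lgals12 (-0.85, adjusted p = 0.00019), Thrsp (-1.05, adjusted p = 0.00032) and the carboxylesterase Ces1d (-0.58, adjusted p = 0.0058). The list medians were -0.40 and -0.29, against 0.10 over all genes.

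The genes that control lipolysis and insulin action followed in part. Of 8 lipolysis genes 3 were lower: Prkar2b, a regulatory subunit of protein kinase A (-0.89, adjusted p = 0.00017), Mgll (-0.48, adjusted p = 0.0012) and Pde3b, the phosphodiesterase through which insulin curbs lipolysis (-0.35, adjusted p = 0.0062). Pnpla2, the lipase that starts lipolysis, was looked up as the companion of Lipe and was not called (0.07, adjusted p = 0.54). Of 9 insulin response genes 3 were lower: Akt2 (-0.67, adjusted p = 0.00057), Trarg1, which helps GLUT4 traffic (-0.77, adjusted p = 0.0030), and Slc2a4, GLUT4 itself (-0.33, adjusted p = 0.019). Of 14 transcription factors 5 were lower and 1 higher, the lower ones led by Cebpa (-0.56, adjusted p = 0.0033) and Ebf2 (-0.42, adjusted p = 0.0051).

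Fatty acid uptake and brown markers were mixed. Of 11 uptake genes 3 were lower, with the fatty acid translocase Cd36 first (-0.55, adjusted p = 0.0030) and the transporter Slc27a1 next (-0.45, adjusted p = 0.017), and 1 was higher, the lipoprotein lipase inhibitor Angptl4 (0.42, adjusted p = 0.024). Of 10 brown markers 4 were lower and 1 higher. The lower ones included the fatty acid elongase Elovl3 (-1.30, adjusted p = 0.0028), the droplet protein Cidea (-0.57, adjusted p = 0.0073) and the respiratory subunit Cox8b (-0.51, adjusted p = 0.0096), while Ucp1 was not called (-0.29, adjusted p = 0.10). Cidea was the 1 of 11 lipid droplet genes that was lower.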

How the data were processed

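Per the labels, the arrays were of the type Affymetrix Mouse Gene 2.0 ST, 1 for the RNA of each of 10 aortas. The deposited values are 1 log2 signal per probe set and array, the base being inferred from their range. The submitters' processing notes name limma, and the sources used here give neither background correction nor normalization. Of 41345 probe sets, 23521 had 1 symbol in the platform annotation, 1814 had several and 16010 are unnamed here. By gene identifier, 23328 matched the GRCm38.p6 RefSeq table. The brightest probe set stood for each of the 1082 genes with several, leaving 22180 genes, with no filter. The test was limma (version 3.58.1, R 4.3.3; lmFit, then eBayes) on genotype alone, two-sided, with Benjamini-Hochberg adjustment over all genes. The fit was tested on simulated data. The 9 genes and all lists were chosen with earlier results of these data known. From each list up to 3 called genes with the smallest p are named (except 1 transcription factor), or 1 where none was called, together with receptors and relatives of the 10 genes. The 6 genes most alike in profile were ranked by Pearson correlation. Titles call the arrays biological replicates. Promoters come from RefSeq, and 8 of the 10 genes matched. Alternatives covered scaling, filter, probe set rule, prior, array weights, replicate block and leaving out each array. The number of arrays limits the precision.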

Additional observations from a re-analysis of the deposited data

Results flagged for a closer look

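Of 146 sets of 5 aortas (1 gene in 1 genotype each, for the 9 genes and the list genes named), 7 held 1 aorta far from the other 4, which is what chance gives in about 1 of 20 groups, and 0 of the 7 concerned the 9 genes. Double knockout replicate 3 was high in Adipor2 (10.19, next 9.92) and in Pde3b (9.66, next 9.31). Double knockout replicate 2 was high in Dpp4 (8.20, next 7.55) and in the macrophage marker Cd163 (7.63, next 7.31). ApoE knockout replicate 1, the aorta with the highest adipocyte signal, was high in the B cell gene Cd79b (8.998, next 8.38) and the Schwann cell gene S100b (7.78, next 6.92). ApoE knockout replicate 2 was high in the red cell anion exchanger Slc4a1 (10.78, next 10.28).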

How the results depend on the processing

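Differences of Lep, Retn, Plin1, Cidec, Fabp4 and Lipe kept their direction in every planned setting, as did that of Lpl in its brighter probe set, while the dimmer one gave 0.03. Of the 9 genes, 0 were called as deposited, 2 lower after median centring (Lep, adjusted p = 0.035, and Retn, 0.045), against 25.4% of all genes, and 5 lower after centring on receptor genes (Lep, Retn, Plin1, Cidec and Lipe, adjusted p from 0.0074 to 0.037), against 22.8%. Leaving out 1 aorta gave 0 to 1. Leaving out 1 aorta moved Adipoq over -0.22 to 0.18 and Pparg over -0.42 to 0.11. With the replicate number as a block, limma called 3 lower (Lep, adjusted p = 0.045, Plin1, 0.035, and Lipe, 0.038), against 8.04% of all genes. Same-numbered aortas correlated at 0.26, 0.197, -0.13, 0.0597 and 0.144 for numbers 1 to 5, and numbers 1, 2 and 5 correlated best with their own. With 2 of the 5 correlations not over 0.1, the numbers were not taken to pair the aortas. Of all genes, 6721 were called as deposited, 4461 after quantile normalization, 3506 above the receptor level (57.4% higher), where fewer genes were tested, 2970 at a threshold of 0.01, and 5056 to 7022 without 1 aorta. With another gene as covariate, chosen after seeing the data, the direction of the calls depended on the covariate. They were 5 lower (Adipoq), 4 lower (Pparg) and 1 lower (Fabp4), against 9.22%, 9.07% and 8.12% of all genes. They were 2 higher (Plin1), 2 higher (Lipe) and 1 higher (Cidec), against 21.1%, 19.9% and 20.8%. With Lep, Retn or Lpl there were 0. The shares of all genes are no fair background for genes that follow the covariate. At equal Adipoq the 5 calls were 3 with the replicate block and 4 to 5 without 1 aorta, Lipe, Plin1 and Cidec passing in 18 of 18 settings, Lep in 15 and Retn in 14. Lep was lost without ApoE knockout replicate 1 or 3, and Retn without ApoE knockout replicate 4 or 5 or double knockout replicate 4. Pparg at equal Adipoq ran from -0.19 to 0.034 without 1 aorta. The cause of these shifts was not tested.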
